A study of Mus musculus with 8 samples.

Results

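Y RNAs are small structured RNAs made by RNA polymerase III and held by the ring-shaped protein Ro60. All rows of the deposited table whose name begins with Y_RNA were taken, with no filter on level, which gave 9 of 964 rows. Small RNA was measured in 8 libraries from mouse bone marrow GMLPs, a sorted population of myeloid and lymphoid progenitors. In the 4 libraries labelled WT the cells were wild type, and in the 4 labelled iMLL-ENL they came from mice with an inducible MLL-ENL, a leukaemia fusion of MLL with ENL. Cells of both genotypes were kept for 3 days in vitro with doxycycline (DOX), so the drug is shared and the genotype is what differs. The sources used here do not give the promoter that drives the transgene, the age of the mice or whether replicates came from separate mice. The p-values thus cover only the spread among these libraries, which may be technical. No row carried the name of a blood cell marker miRNA, so the labelled cell type was not checked.

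Each Y RNA folds into a long stem formed by its 5′ and 3′ ends, with a loop between them. Ro60 binds the conserved part of that stem, and La, the protein that protects new polymerase III transcripts, binds the run of U at the 3′ end. Y RNAs are known for steering Ro60 in RNA quality control, for a role in the start of DNA replication, and for giving rise to abundant short fragments.

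The mouse genes Rny1 and Rny3 are shown as the reference for what a mouse Y RNA is, since the 9 rows bear the family name only. They lie on chromosome 6 in GRCm38, Rny3 at chr6:47781624-47781725 on the plus strand and Rny1 at chr6:47788069-47788180 on the minus strand, 6343 bases apart. Their transcripts in GENCODE release M21, annotated as misc_RNA, are 102 and 112 nt long and identical at 81 of 112 aligned columns (72.3%). Capitals mark the longest blocks shared by the first 20 and by the last 20 bases, which belong to the ends that pair into the stem. The sequences are given 5′ to 3′ with T for U:
Rny1: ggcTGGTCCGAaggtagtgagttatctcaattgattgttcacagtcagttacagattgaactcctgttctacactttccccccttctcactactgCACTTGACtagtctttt
Rny3: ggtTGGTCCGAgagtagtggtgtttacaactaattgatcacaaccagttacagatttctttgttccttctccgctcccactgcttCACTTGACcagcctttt

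On the strand of the transcript, the block TGGTCCGA was present in 3 of the 566 misc_RNA transcripts (0.53%), CACTTGAC in 12 (2.12%), and both in 2, which are Rny1 and Rny3 themselves. A further 13 misc_RNA transcripts aligned over at least 90% of Rny1, at 78.1% to 92.7% identity, and 1 aligned to Rny3 at 77.5%. The family therefore holds many similar copies. Row names end in a transcript suffix in the table, and as in the gene names it is left out of the text. None of the 9 full row names is a transcript name of GENCODE M21, so no row is paired here with a sequence, a length or a place in the genome. Whether a row holds reads of Rny1, of Rny3 or of another copy was not analysed here. Levels are not per length, so rows are compared as shares of reads and not as numbers of molecules.

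Values are reads in 1000000 of the library's scale (RPM). Within each library they are whole multiples of 1 step, and with that step taken as 1 read the scales stand for 5910000 to 9270000 reads. Y RNA then accounts for 10293 to 12760 reads in a WT library and 41479 to 57511 in an iMLL-ENL library. WT replicate 2 stood apart over the tested rows of all classes, with a mean correlation to its group of 0.908 against 0.955 to 0.994 for the other 7 libraries. It had the lowest Y RNA sum, and results that turn on it are given without it. Whether the reads come from whole Y RNAs, from their fragments or from both is not known, as no read lengths were used. Levels here are thus of Y RNA reads and not of whole Y RNA. In bulk samples a change in the make-up of the culture and a change of RNA per cell cannot be told apart.

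Every Y RNA row was higher in every iMLL-ENL library than in any WT library. Such a lack of overlap, 9 of 9 rows here, was seen for 29.3% of all 964 rows in that direction. The Y RNA sum was 1632, 1337, 1774 and 1788 RPM in WT replicates 1 to 4, and 5954, 5794, 6541 and 5195 RPM in iMLL-ENL replicates 1 to 4. The lowest iMLL-ENL library lay 2.90 times above the highest WT library. The group means were 1633 ± 209 and 5871 ± 553 RPM (SD, n = 4 each), a ratio of 3.60. After TMM scaling the ratio was 2.73, and it was 4.41 when libraries were scaled to their total minus the 5 most abundant rows. The groups stayed apart under each of the 5 other scalings.

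**Figure D1:**
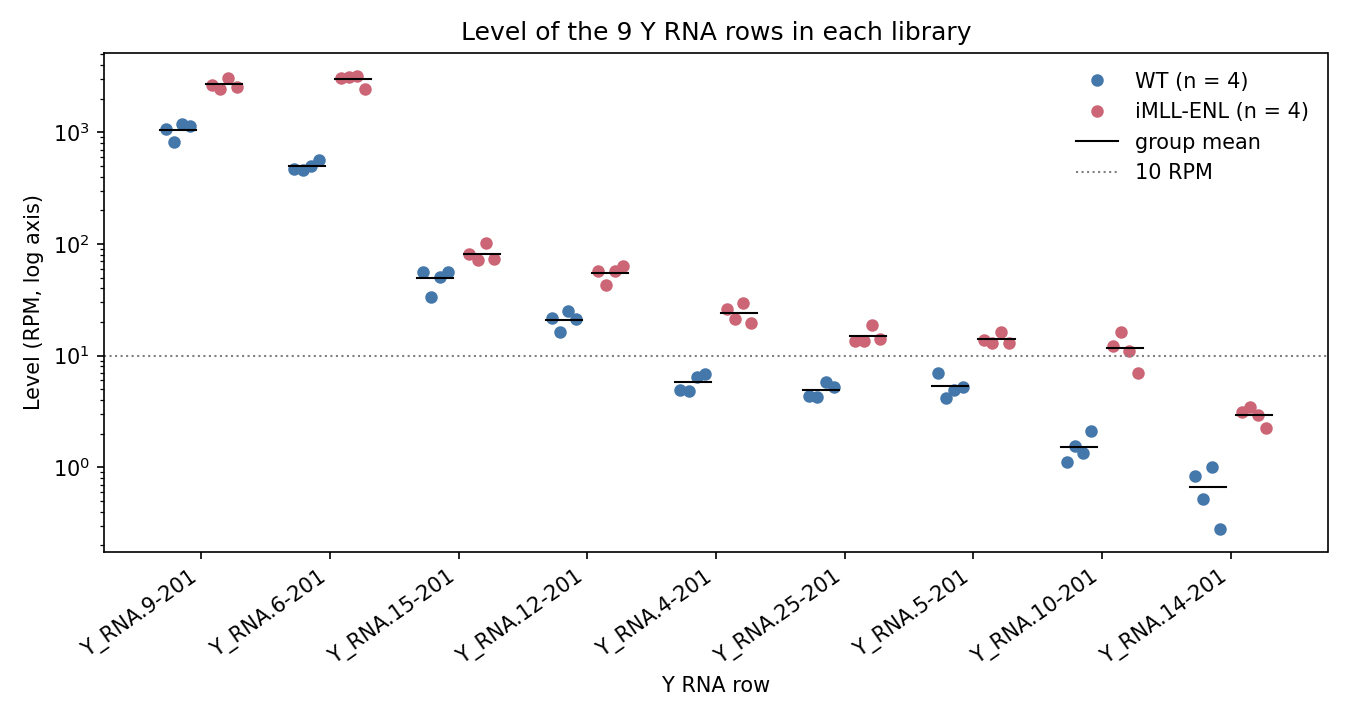
Level of each Y RNA row (x axis) in RPM on a log axis (y axis), with 1 point per library, black bars for group means and a dotted line at 10 RPM. In all 9 rows the 4 iMLL-ENL points lie above the 4 WT points, and the gap is widest for Y_RNA.10 and Y_RNA.6.

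Set against other RNA classes of the same library, which takes the scaling total out, Y RNA was again higher in iMLL-ENL. Out of all rows together, Y RNA took 0.348% to 0.596% in WT libraries and 1.78% to 2.52% in iMLL-ENL libraries. As a percentage of the tRNA sum it was 0.57 ± 0.13 in WT and 2.77 ± 0.39 in iMLL-ENL. The snoRNA class took in the scaRNAs, which guide modification of spliceosomal RNAs, beside the snoRNAs, most of which act on ribosomal RNA. Against this class, Y RNA went from 9.28% ± 1.99 to 25.7% ± 4.9. Against the snRNAs of the spliceosome it went from 9.19% ± 4.02 to 22.9% ± 6.5 (SD, n = 4 each). In none of these 4 comparisons did the groups overlap. The closest, to snRNA, left a gap of only 1.20 times, between 13.9% in WT replicate 3 and 16.7% in iMLL-ENL replicate 2. The 4 are not independent, as the sum of all rows includes each of the other classes.

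Most Y RNA reads lay in Y_RNA.9 and Y_RNA.6. Y_RNA.9 was at 1068, 812, 1181 and 1127 RPM in the WT replicates and at 2661, 2460, 3092 and 2558 RPM in the iMLL-ENL replicates. Its lowest value was in WT replicate 2, and the groups were separated by a factor of 2.08 at their nearest points. The log2 fold change of 1.37 ± 0.18 (SE) had an adjusted p = 0.0023 in limma, fitted on log2(RPM + 1) to the 633 rows that reached 10 RPM in at least 4 libraries. In that fit 20.4% of all rows rose past the adjusted threshold of 0.05, and the median log2 fold change of all tested rows was 0.31.

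Y_RNA.6 was at 469, 460, 498 and 565 RPM in the WT replicates and at 3085, 3151, 3212 and 2445 RPM in the iMLL-ENL replicates. The WT libraries lay close together, and iMLL-ENL replicate 4 was the lowest of its group by a clear step while still 4.33 times above the highest WT library. The log2 fold change was 2.57 ± 0.17 (SE, limma adjusted p = 4.4e-05). It was the highest of the 633 tested rows, and it ranged from 2.17 to 2.89 over the 19 alternative fits. In the authors' deposited table Y_RNA.6 also had the smallest p-value of all 964 rows, with a log2 fold change of 2.19 and an FDR of 5.5e-07.

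The balance between these rows differed between the groups. Y_RNA.9 took 65.4%, 60.7%, 66.6% and 63.0% of Y RNA reads in the WT replicates and 44.7%, 42.5%, 47.3% and 49.2% in the iMLL-ENL replicates. Y_RNA.6 took 28.7%, 34.4%, 28.1% and 31.6% in WT and 51.8%, 54.4%, 49.1% and 47.1% in iMLL-ENL. The share of Y_RNA.6 was thus above that of Y_RNA.9 in iMLL-ENL replicates 1, 2 and 3 and below it in replicate 4 and in every WT library. Per library, the ratio of Y_RNA.6 to Y_RNA.9 was 0.439, 0.566, 0.421 and 0.501 in WT and 1.16, 1.28, 1.04 and 0.956 in iMLL-ENL. On the log2 scale the mean ratio went from -1.06 ± 0.19 to 0.14 ± 0.18 (SD, n = 4 each), a difference of 1.20, or 2.30-fold. The exact two-sided permutation test over the 70 assignments of libraries gave p = 0.0286 (1 test), the smallest this design allows. This ratio does not depend on how libraries are scaled, but the pair was chosen with its levels known.

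**Figure D2:**
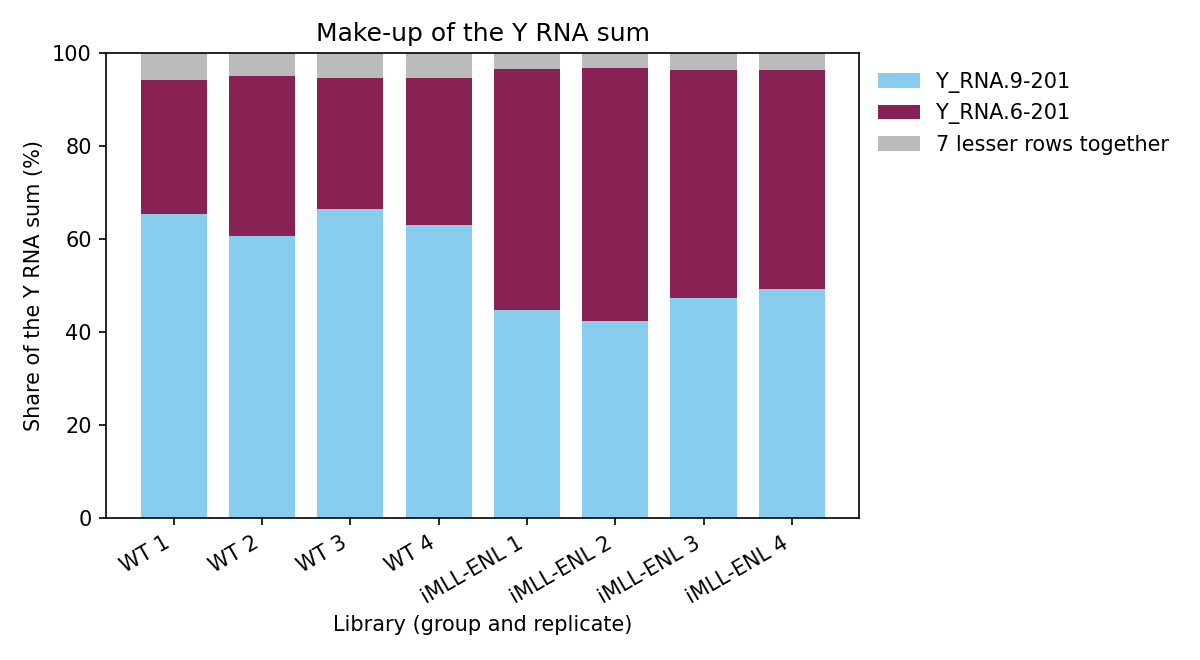
Share of the Y RNA sum (y axis, %) taken by Y_RNA.9, Y_RNA.6 and the 7 lesser rows together, as 1 stacked bar per library (x axis). Y_RNA.9 fills 60.7% to 66.6% of the bar in WT and 42.5% to 49.2% in iMLL-ENL, while Y_RNA.6 grows from at most 34.4% to at least 47.1%.

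Together the other 7 rows held 5.38% ± 0.41 of Y RNA reads in the WT libraries and 3.49% ± 0.24 in the iMLL-ENL libraries (SD, n = 4 each). Y_RNA.15 had the smallest ratio of group means of the 9, 1.67. It was at 56.3, 33.5, 51.1 and 55.6 RPM in WT and at 81.7, 72.2, 101.6 and 72.8 RPM in iMLL-ENL. WT replicate 2 was low and iMLL-ENL replicate 3 high, and the nearest libraries of the groups differed by 1.28 times. The log2 fold change of 0.74 ± 0.20 (SE, limma adjusted p = 0.028) became 0.35 after TMM scaling (limma adjusted p = 0.29). The call also ended after quantile normalization (0.13), after median centring (0.083), and without WT replicate 1 (0.054), iMLL-ENL replicate 1 (0.074) or iMLL-ENL replicate 3 (0.080), all limma adjusted p. Its share of the Y RNA sum was 2.51% to 3.45% in WT and 1.25% to 1.55% in iMLL-ENL, with no overlap. In the authors' deposited table it was the Y RNA row without a call (log2 fold change 0.35, FDR = 0.57), and the remaining 8 had an FDR under 0.05 with a higher level in iMLL-ENL, against 4.56% of all rows.

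Y_RNA.12 was at 21.6, 16.2, 24.9 and 21.2 RPM in WT and at 57.3, 42.8, 56.9 and 63.3 RPM in iMLL-ENL. The lowest library of each group was its replicate 2. The log2 fold change was 1.35 ± 0.18 (SE, limma adjusted p = 0.0023). These 4 rows, Y_RNA.9, Y_RNA.6, Y_RNA.15 and Y_RNA.12, reached 10 RPM in all 8 libraries.

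Y_RNA.4, Y_RNA.25 and Y_RNA.5 passed the level filter through the iMLL-ENL libraries alone, with no WT library at 10 RPM, so that a difference was built into their selection and their tests are no separate support. Y_RNA.4 was at 4.9, 4.81, 6.43 and 6.87 RPM in WT and at 26.1, 21.5, 29.3 and 19.5 RPM in iMLL-ENL. Its log2 fold change of 1.89 ± 0.23 (SE, limma adjusted p = 0.0022) was second among the tested rows. Y_RNA.25 was at 4.34, 4.29, 5.75 and 5.19 RPM in WT and at 13.4, 13.6, 19.0 and 14.2 RPM in iMLL-ENL (log2 fold change 1.44 ± 0.23, limma adjusted p = 0.0064). Replicate 3 was the highest library of each group. Y_RNA.5 was at 7.0, 4.16, 4.9 and 5.19 RPM in WT and at 13.8, 12.9, 16.2 and 13.03 RPM in iMLL-ENL (log2 fold change 1.26 ± 0.23, limma adjusted p = 0.0080). These rows rest on 29 to 50 reads in a WT library and 102 to 258 in an iMLL-ENL library.

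Y_RNA.10 and Y_RNA.14 stayed below the filter. Y_RNA.10 was at 1.12, 1.56, 1.35 and 2.1 RPM in WT and at 12.2, 16.4, 11.03 and 7.01 RPM in iMLL-ENL. That is 8 to 15 reads against 56 to 152, and the ratio of its group means, 7.61, was the highest of the 9 rows. Y_RNA.14 was at 0.84, 0.52, 1.01 and 0.28 RPM in WT and at 3.15, 3.45, 2.96 and 2.25 RPM in iMLL-ENL. It stands on 2 to 6 reads in WT and 18 to 32 in iMLL-ENL, and WT replicate 4 lies under the floor of 3 reads, 0.42 RPM there. In a limma fit of all 964 rows without a filter, the log2 fold changes were 2.28 ± 0.26 for Y_RNA.10 (adjusted p = 0.0019) and 1.26 ± 0.19 for Y_RNA.14 (adjusted p = 0.0039). In that fit 9 of 9 Y RNA rows were called higher, against 23.9% of all rows. The median log2 fold change was 1.37 over the 9 rows and 0.33 over all rows.

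The lesser rows did not move alike when set against the rows with most reads. Y_RNA.12 was 1.88% to 2.11% of Y_RNA.9 in WT and 1.74% to 2.47% in iMLL-ENL, so the groups overlapped. Y_RNA.5 was 0.415% to 0.656% of Y_RNA.9 in WT and 0.509% to 0.526% in iMLL-ENL. Y_RNA.25 was 0.407% to 0.528% of it in WT and 0.503% to 0.614% in iMLL-ENL. For these last rows the groups overlapped as well, while as a percentage of Y_RNA.6 all 3 were lower in every iMLL-ENL library than in any WT library. Y_RNA.6 had the highest log2 fold change of all tested rows, so a lower level against it was largely set by that choice of base. The share of all rows that are lower against Y_RNA.6 was not computed.

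Y_RNA.10 showed the reverse. Y_RNA.14 is listed with it, but its 2 to 6 reads in a WT library are too few to place it. As a percentage of Y_RNA.6, Y_RNA.10 was 0.239% to 0.372% in WT and 0.287% to 0.520% in iMLL-ENL, and Y_RNA.14 was 0.0496% to 0.203% and 0.092% to 0.109%, with overlap in each. Set against Y_RNA.9, both were higher in every iMLL-ENL library, for Y_RNA.14 by a margin of only 1.03 times. Y_RNA.4 lay between, higher against Y_RNA.9 (0.459% to 0.609% in WT, 0.764% to 0.982% in iMLL-ENL) and lower against Y_RNA.6 (1.05% to 1.29%, then 0.681% to 0.914%). Y_RNA.15 was lower against either. These groupings were made from the values and carry no test. Whether reads were shared or split between similar copies by the counting was not tested.

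**Figure D3:**
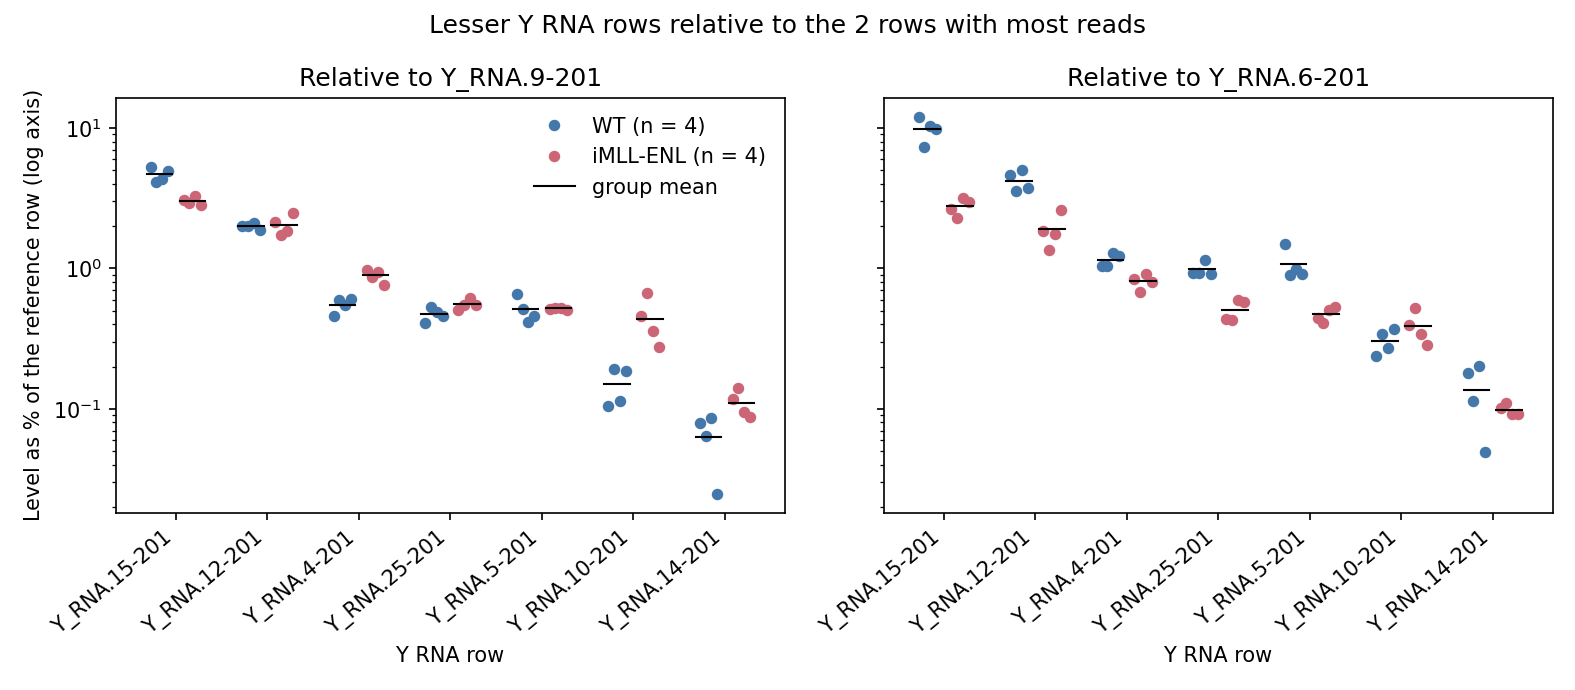
Level of the 7 lesser rows (x axis) as a percentage of Y_RNA.9 (left) and of Y_RNA.6 (right) on log y axes, with 1 point per library and black bars for group means. The groups of Y_RNA.12 overlap around 1.74% to 2.47% on the left, whereas on the right its mean goes from 4.22% to 1.89%.

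Within groups the same pairings could be seen in part. After group means were taken out, log2 levels over the 8 libraries correlated at 0.83 between Y_RNA.10 and Y_RNA.6 and at -0.07 between Y_RNA.10 and Y_RNA.9. Y_RNA.12 correlated at 0.74 with Y_RNA.9 and at -0.16 with Y_RNA.6, and Y_RNA.15 at 0.93 and 0.51. Y_RNA.14, on few reads, did not follow: it correlated at -0.14 with Y_RNA.6, 0.14 with Y_RNA.9 and -0.28 with Y_RNA.10. Y_RNA.9 and Y_RNA.6 correlated at 0.47 with each other. The points share their libraries and scaling, and these r values are descriptions over 8 libraries.

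The scaling moved the size of the changes more than their order. Y_RNA.6 had the highest log2 fold change and Y_RNA.15 the lowest of the 7 tested rows under every scaling. Under TMM, where the median of all tested rows was -0.08, Y_RNA.6 was at 2.17, Y_RNA.4 at 1.53, Y_RNA.25 at 1.08, Y_RNA.9 at 0.97, Y_RNA.12 at 0.96 and Y_RNA.5 at 0.91. Of the rows with all 8 libraries at 10 RPM, Y_RNA.6, Y_RNA.9 and Y_RNA.12 passed the limma test in all 19 alternative fits, with adjusted p up to 0.021 (Y_RNA.12). In those fits 5.53% to 50.9% of all rows were called higher.

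**Figure D4:**
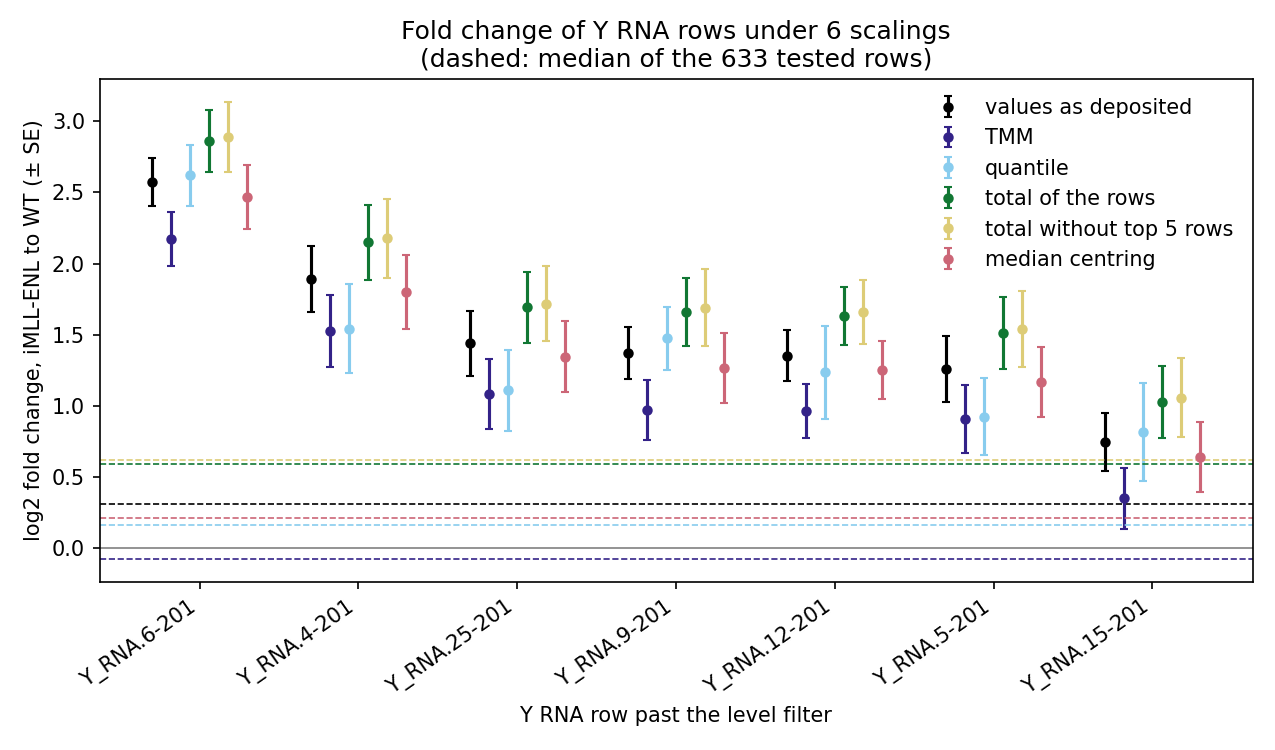
log2 fold change of iMLL-ENL to WT (y axis, points with SE bars) for the 7 Y RNA rows past the level filter (x axis) under 6 scalings, with dashed lines for the median of the 633 tested rows under each. Y_RNA.6 lies between 2.17 and 2.89, and the TMM point of Y_RNA.15, 0.35, is the lowest.

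Y RNA genes share their promoter type, in which all elements lie upstream of the transcript, with U6 and U6atac snRNA, selenocysteine tRNA, 7SK, vault RNA and the RNAs of RNase P and RNase MRP. Of these, U6 (193 rows), U6atac (3 rows) and selenocysteine tRNA (1 row) were present by name. Of the 89 rows tested under these names, 87 were U6 rows. Whether each of them, or each Y RNA row, has this promoter was not checked. Reads of similar U6 copies may be shared or split by the counting, which was not tested. Of the 89 rows, 5 rose (5.62%, against 20.4% of all tested rows) and 0 fell. The median log2 fold change of the 89 was 0.29, against 0.31 for all tested rows. tRNA88-SeCTCA, the tRNA that inserts selenocysteine, had 105.7 ± 19.9 RPM in WT libraries and 105.7 ± 15.9 RPM in iMLL-ENL libraries (log2 fold change 0.01 ± 0.18, limma adjusted p = 0.97). U6atac.12, the U6 counterpart of the minor spliceosome, was at 59.7 ± 40.1 and 37.5 ± 6.6 RPM (-0.49 ± 0.35, limma adjusted p = 0.31), with 119.9 RPM in WT replicate 2 and 38.8 to 41.1 RPM in the other WT libraries. Without that library its log2 fold change was -0.09 (limma adjusted p = 0.66). U6.736 was at 26.7 ± 25.1 and 29.0 ± 1.9 RPM (0.47 ± 0.46, limma adjusted p = 0.46). U6.207 and U6.781, also U6 copies, had log2 fold changes of 0.36 and 0.12 (limma adjusted p = 0.64 and 0.89).

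The U6 values turned on the same library. The U6 sum was 6627 RPM in that library and 747 to 1187 RPM in the other WT libraries, against 1671 to 2082 RPM in iMLL-ENL. Without it, 87 of the 89 rows were called higher, all of them U6, and the median of the list became 0.86. Calls grew over the whole table in that fit, to 260 of 633 rows higher (41.1%), and the median of all tested rows became 0.37. The ratio of the Y RNA sum to the U6 sum was 1.38, 0.202, 2.37 and 1.78 in the WT replicates and 3.56, 2.78, 3.25 and 2.94 in the iMLL-ENL replicates. Y RNA was therefore higher against U6 in each iMLL-ENL library, by 1.17 times at the nearest points. Without WT replicate 2 the 7 tested Y RNA rows kept log2 fold changes of 0.57 (Y_RNA.15) to 2.54 (Y_RNA.6).

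The rows whose log2(RPM + 1) followed the Y RNA sum most closely over the 8 libraries, out of 626 other tested rows, were tRNA27-TyrGTA (Pearson r = 0.967), U4.46 (0.966), SNORD97.1 (0.959), tRNA622-AlaCGC (0.959) and tRNA476-IleAAT (0.957). The median r was 0.39, and 37 rows had an r over 0.9. The likeness lay mainly in the difference between the groups. With group means taken out, the r of these 5 rows was -0.12, 0.31, 0.27, 0.13 and -0.46. The WT mean of tRNA622-AlaCGC was only 6.46 ± 0.17 RPM (SD, n = 4), with no WT library at 10 RPM. Its iMLL-ENL values alone met the level filter. A group difference was thus part of its selection, and its r of 0.959 is no separate evidence of likeness. SNORD97.1, a box C/D snoRNA, had the ratio of group means nearest to that of the Y RNA sum, 3.21 against 3.60. tRNA27-TyrGTA rose by 1.57 times, from 25.7 ± 0.7 to 40.2 ± 2.6 RPM (SD, n = 4 each).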

How the data were processed

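Small RNA libraries were prepared with the QIAseq miRNA kit, per the labels' protocols, from 4 WT and 4 iMLL-ENL samples. In 1 table the authors deposited a value for each row in each library. Its values behave as RPM, deposited under the name TPM: they are whole multiples of 1 step per library (99.8% to 100% within 0.0055 RPM), with no trace of division by length. The step of 1 read was inferred from the values, so a count test was not run, and the read numbers given here rest on that inference. The authors' own log2 fold change, mean log2 CPM, p-value and FDR are in the same deposited table, per the file headers. The build was GRCm38, per the submitters' processing notes. The sources used here do not give the aligner, counter, annotation or handling of multiply mapped reads.

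Rows with at least 10 RPM in 4 or more libraries (633 of 964) were fitted with limma 3.58.1 (R 4.3.3, statmod 1.5.0). The fit used log2(RPM + 1) and a prior that was trended and robust, with two-sided tests and Benjamini-Hochberg adjustment over all rows tested at 0.05. Fold changes on this scale understate those of low rows. The fit was tested on simulated data with independent noise in each row. That noise held no shift of a whole library, so the simulation does not cover such a shift. Ratios used Python 3.11.15, numpy 2.4.6 and pandas 2.3.3, and sequences Biopython 1.88 and blastn 2.17.0. Floors of 3 reads, 0.32 to 0.51 RPM, cover counting error only. All Y_RNA rows are named, with the 5 rows most like their sum and up to 5 of the polymerase III list. The members and lists were chosen with earlier results of these data known. Alternatives were 5 other scalings, 2 pseudocounts (0.5 and 10), no filter, no trend, sample quality weights, a replicate block and leaving out each library.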

Additional observations from a re-analysis of the deposited data

Results flagged for a closer look

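Among the Y RNA values, sums, shares and ratios, 5 of the 86 groups of 4 checked held a library far from the other 3, and chance gives about 1 in 20. iMLL-ENL replicate 4 was low for Y_RNA.6, at 2444.9 RPM against 3085 to 3212 RPM. iMLL-ENL replicate 3 was high for Y_RNA.25, at 18.99 RPM against 13.4 to 14.2 RPM. As a percentage of Y_RNA.6, WT replicate 3 was high for Y_RNA.25 (1.16% against 0.919% to 0.933%) and WT replicate 1 for Y_RNA.5 (1.49% against 0.905% to 0.985%). WT replicate 2 was high for the U6 sum, at 6627 RPM against 747 to 1187 RPM.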

How the results depend on the processing

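Over all tested rows 129 were called higher and 54 lower in iMLL-ENL. The counts were 35 and 129 after TMM scaling, 68 and 56 after quantile normalization, 251 and 27 when libraries were scaled by their row total, 255 and 29 when that total omitted the 5 most abundant rows, 322 and 135 with sample quality weights, and 230 and 52 without a filter. With 1 library left out they ranged from 46 to 260 and from 13 to 98, lowest without WT replicate 1 and highest without WT replicate 2; the cause was not tested. Of the 7 tested Y RNA rows, 6 or 7 were called in each of these fits, the exception being Y_RNA.15, and 9 of 9 without a filter. Of the 7, Y_RNA.4, Y_RNA.25 and Y_RNA.5 passed the filter through the iMLL-ENL libraries alone. Their calls are therefore no separate support, here or with the replicate block below. The ratio of the Y RNA sums, 3.60, was 2.73 after TMM scaling, 4.35 by row total and 4.41 by row total minus the 5 most abundant, and 3.39 to 3.73 with 1 library left out. The share of Y_RNA.6 rose by 18.6 to 21.1 percentage points, and its log2 ratio to Y_RNA.9 by 1.13 to 1.28, with 1 library left out. Deviations of same-numbered libraries correlated at 0.39, 0.29, -0.13 and 0.42, and WT replicates 1, 2 and 4, but not 3, correlated best with their own number. This is a hint from the data and not from the labels, and the numbers were not treated as pairs. With a replicate block all 7 rows were called, 151 of 633 rows were called higher (23.9%) and 42 lower, and the log2 ratio difference of 1.20 had an exact p of 0.125, the smallest that sign flips of 4 pairs allow. Depth limits Y_RNA.14 and Y_RNA.10, at 2 to 15 reads in a WT library.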
